A study of Mus musculus with 6 samples.

Results

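The epithelium of the developing lung is described by markers of its tips and markers of its stalks. Of 9 such genes listed for comparison, 7 were each represented by 1 probe set (a group of short oligonucleotides made against a transcript) whose only gene symbol in the platform's annotation is that gene. They comprised 3 of the 4 distal markers, the surfactant protein genes Sftpc, Sftpb and Sftpd, and 4 of the 5 proximal airway markers, Sox2, Scgb1a1, Klf5 and Trp63. Sftpa1 and Calca were not analysed here, because no probe set carries those symbols alone. The 7 genes belong to 8251 genes with a probe set of their own among 12422 probe sets that are not controls. RNA came from dissected mouse lungs at stage E11.5, with 3 arrays for the branching region, taken from the lungs of both sides, and 3 arrays for the non-branching region, the main bronchi with a piece of trachea. The labels name no strain, genotype or treatment, and do not say whether embryos were pooled or whether the 3 samples of a region came from separate litters, so the p-values measure a spread between samples that may be technical only.

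The lung epithelium arises as buds from the foregut. Its growing tips hold progenitors that express surfactant genes early and later give rise to alveolar cells, whereas the stalks behind the tips turn on Sox2 and form the conducting airways with their secretory, ciliated, basal and neuroendocrine cells. Surfactant proteins B and C are small hydrophobic proteins that help spread lipid at the air surface, and surfactant proteins A and D are collectins, secreted lectins of innate defence. Most of these products mature late in gestation, long after the stage sampled here.

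Regulatory sequence is shown for the 2 measured markers with an entry in the RefSeq promoter table (build GRCm38.p6) because they are 1 distal and 1 proximal marker whose windows can be read side by side. Each window runs from 250 bases before to 50 bases after the annotated start, 5′ to 3′ on the + strand. Capitals mark matches on either strand to CTCAAG, the core bound by the lung and thyroid factor Nkx2-1, or to CCAAT, the core bound by NF-Y. The CTCAAG core occurred in 15.9% of all 32851 promoters of that length and CCAAT in 37.4%. A match describes letters only.
Sftpb, chr6:72304360-72304659: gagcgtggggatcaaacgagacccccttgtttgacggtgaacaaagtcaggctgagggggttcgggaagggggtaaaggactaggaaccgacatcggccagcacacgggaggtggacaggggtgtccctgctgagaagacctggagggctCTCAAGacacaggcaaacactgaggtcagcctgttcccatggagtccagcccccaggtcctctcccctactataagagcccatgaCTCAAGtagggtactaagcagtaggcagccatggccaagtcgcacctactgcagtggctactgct
Sox2, chr3:34649745-34650044: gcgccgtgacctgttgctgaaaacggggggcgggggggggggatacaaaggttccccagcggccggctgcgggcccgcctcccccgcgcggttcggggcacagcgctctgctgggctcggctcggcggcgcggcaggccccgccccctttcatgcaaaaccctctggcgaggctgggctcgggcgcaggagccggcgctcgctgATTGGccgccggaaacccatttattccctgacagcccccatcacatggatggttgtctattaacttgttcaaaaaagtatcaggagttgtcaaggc

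The Sftpb window held 2 CTCAAG matches, beginning at -100 and -15 from the start, and 2 or more were found in 1.40% of all promoters. It held 0 CCAAT matches. The Sox2 window held 0 CTCAAG matches and 1 CCAAT match on the opposite strand, its leftmost base at -46.

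Signals are the deposited intensities on a linear scale, and the number of arrays limits their precision. The arrays shared a common scale, with medians of 212 to 229. A level of 147 served as background. It is the 95th percentile of 114 values measured with 19 controls made against transcripts of bacteria and yeast. Their median was 19.8 to 40.7 on 5 arrays and reached 78.8 on non-branching replicate 2. A probe set was called when its limma p, adjusted by the Benjamini-Hochberg method over 9316 probe sets tested, was under 0.05. By this rule 84 probe sets were higher and 105 lower in branching, 2.03% of those tested.

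Among the 7 markers Sftpc and Sox2 had the smallest p-values, with differences of opposite sign, but neither was called. Sftpc had more signal in branching and Sox2 more in non-branching. The other markers did not divide by their distal or proximal name. Klf5 and Scgb1a1, listed as proximal, had higher mean signals in branching, as did the distal marker Sftpd. Sftpb and Trp63 had nearly the same mean in both regions. Sftpd lay below background on all arrays, and Klf5 and Scgb1a1 on some. With limma 0 of the 7 markers were called, against 2.03% of all probe sets. At an unadjusted p under 0.05 there were 4 of 7, namely Sftpc, Sox2, Klf5 and Scgb1a1, against 14.6% of all probe sets. All 3 branching arrays lay above all 3 non-branching arrays for 3 of the 7 markers, a pattern of 9.79% of probe sets, and below them for 1, a pattern of 11%. The 7 genes were listed with earlier results of these arrays known, and Klf5 and Sftpd passed the filter on dim probe sets through their branching arrays. These counts are therefore descriptions.

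**Figure D1:**
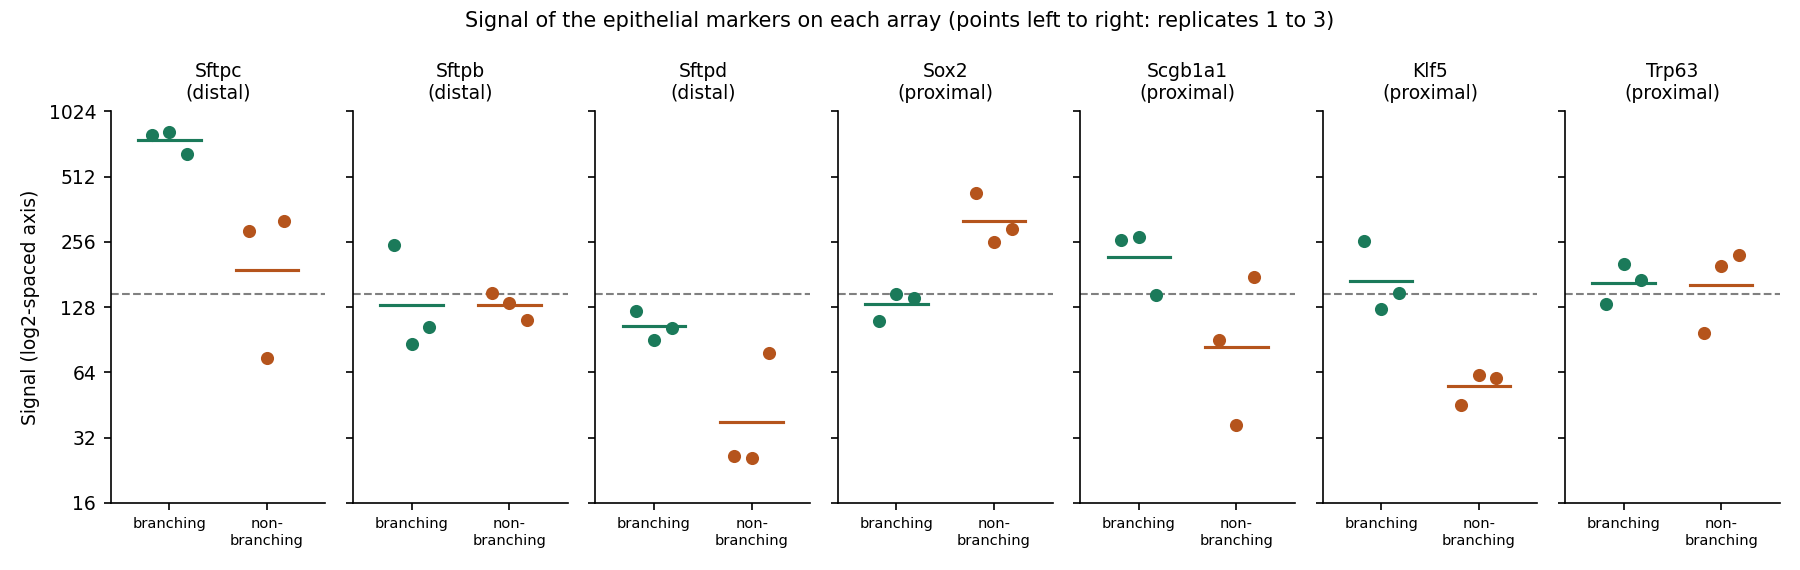
Signal of each marker (vertical axis, spaced by log2) on the 3 branching arrays (green) and the 3 non-branching arrays (orange), with bars at the mean of the log2 signals and a dashed line at the background level of 147. Sftpc is the only marker above background on all 3 branching arrays, Sox2 is the only one above it on all 3 non-branching arrays, and Sftpd lies below it on all 6.

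Much of the marker signal lay near background. Of the 42 marker values, 20 exceeded 147. No marker exceeded it on all 6 arrays, and 1, Sftpd, exceeded it on none. Levels of different probe sets were not set against each other, because each has its own response.

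Sftpc (Entrez gene 20389) encodes surfactant protein C, the earliest of the surfactant genes to mark the distal tip epithelium. Its signal was 794, 826 and 649.7 on branching replicates 1 to 3 and 286, 74.5 and 320.5 on non-branching replicates 1 to 3. The groups did not overlap, and 1 non-branching array, replicate 2, lay below background while the other two were above it. The branching mean was 757 ± 93.9 and the non-branching mean 227 ± 133 (SD, n = 3). The log2 difference, branching minus non-branching, was 1.99 ± 0.49 (SE, 95% interval 0.88 to 3.09), and it was not called (limma adjusted p = 0.0807). With the array at background raised to 147, the branching signal was 3.16-fold higher, a point value without sampling error. Without non-branching replicate 2 the difference was smaller, 1.31, and passed (adjusted p = 0.0364). Under the other 14 alternatives the adjusted p was 0.0556 to 0.271. In pieces of tissue such as these, fewer cells of a type and less RNA per cell cannot be told apart.

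Sftpb (Entrez gene 20388) encodes surfactant protein B, which packs lipid in the lamellar bodies of alveolar type II cells. Its signal was 247, 86.4 and 104 on branching replicates 1 to 3 and 149, 133 and 112 on non-branching replicates 1 to 3. Branching replicate 1 stood above the rest, the groups overlapped, and 1 array of each region exceeded background. The means were 146 ± 88.1 and 131 ± 18.9 (SD, n = 3), and the log2 difference rounded to 0.00 ± 0.49 (SE, 95% interval -1.10 to 1.10, limma adjusted p = 0.9995). Differences of 2-fold in either direction lie inside that interval.

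Sftpd (Entrez gene 20390) encodes the collectin surfactant protein D. Its signal was 123.5, 90.0 and 102.5 on branching replicates 1 to 3 and 26.2, 25.8 and 78.6 on non-branching replicates 1 to 3. The branching values were the higher ones without overlap, but each of the 6 lay below background, so no fold is given (limma adjusted p = 0.348). Its mean log2 signal lay at percentile 25.6 of all probe sets, just above the lowest 25% that were left out of the test, and the branching arrays brought it there.

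Sox2 (Entrez gene 20674) encodes a transcription factor of the stalk and airway epithelium, needed for airway differentiation and for the separation of trachea from oesophagus. Its signal was 110.1, 148 and 141 on branching replicates 1 to 3 and 431, 257 and 293 on non-branching replicates 1 to 3. The lowest non-branching array exceeded the highest branching array, and 2 of 3 branching arrays were below background. The branching mean was 133 ± 20.01 and the non-branching mean 327 ± 91.7 (SD, n = 3). The log2 difference was -1.28 ± 0.33 (SE, 95% interval -2.03 to -0.53) and was not called (limma adjusted p = 0.0995). With branching arrays below background raised to that level, the signal was 2.17-fold lower in branching, a point value without sampling error. The name of this probe set marks a design made under relaxed selection rules, which is less specific for the transcript. Over all alternatives the difference was -1.43 to -1.06 and the adjusted p 0.0759 to 0.250.

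Sftpc and Klf5 had their higher signals on the arrays where Sox2 had its lower ones, which restates the values given for each gene and is no further evidence. The plot of both against Sox2 shows which array gave which values, and distances between its axes cannot be read, since the axes belong to different probe sets.

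**Figure D2:**
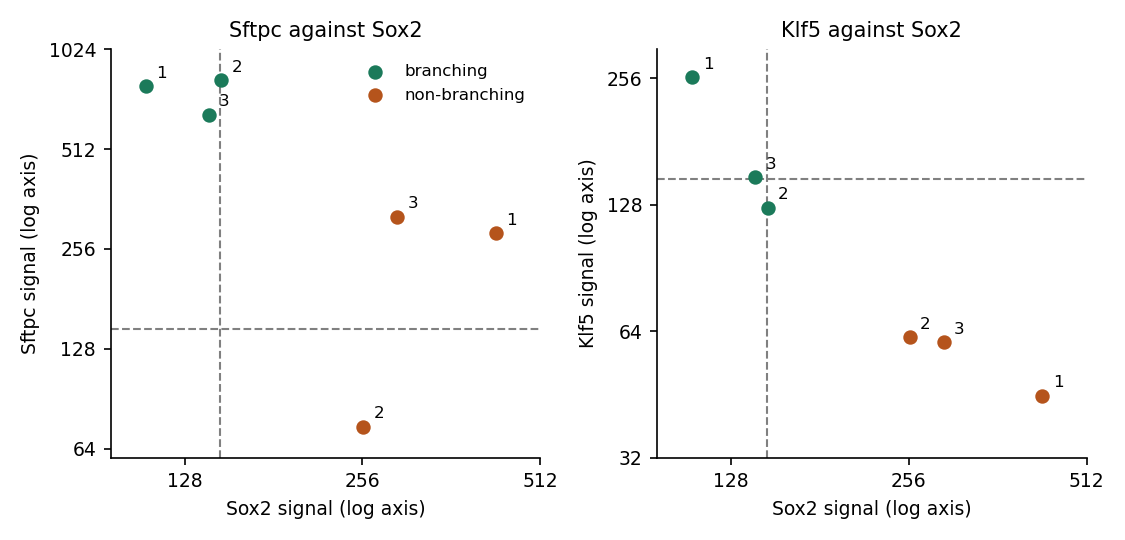
Signal of Sftpc (left) and Klf5 (right) against Sox2 on the same array, both axes logarithmic, with the replicate number beside each point and dashed lines at the background level of 147. Branching arrays (green) lie at lower Sox2 and at higher Sftpc and Klf5 than non-branching arrays (orange). Klf5 on branching replicate 2, at 125.9, is below the background line, and non-branching replicate 2 is the array with Sftpc at 74.5.

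Klf5 (Entrez gene 12224) encodes a zinc finger transcription factor found in epithelia of the airway and gut, which in mice is required for maturation of the lung before birth. Its signal was 258, 126 and 149 on branching replicates 1 to 3 and 45.0, 61.9 and 60.3 on non-branching replicates 1 to 3. All 3 branching arrays lay above the non-branching ones, the reverse of the order seen for Sox2, and branching replicate 1 was highest. Non-branching was below background on all 3 arrays, and 2 of 3 branching arrays exceeded it. The non-branching mean also lay below 61.0, the lowest mean signal of a tested probe set, so the branching arrays brought Klf5 into the test. The means were 177 ± 70.5 and 55.7 ± 9.33 (SD, n = 3), and the fitted log2 difference was 1.61 ± 0.49 (SE, 95% interval 0.50 to 2.73, limma adjusted p = 0.157). With the non-branching arrays raised to the background level, the branching signal was 1.15-fold higher, a point value without sampling error. Branching replicate 2 was itself below that level and was not raised.

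Scgb1a1 (Entrez gene 22287) encodes the secretoglobin that marks club cells, the secretory cells of the mature airway. Its signal was 261, 269 and 146 on branching replicates 1 to 3 and 90.4, 36.7 and 175 on non-branching replicates 1 to 3. Branching replicate 3 lay below non-branching replicate 3, so the groups overlapped, and 3 of the 6 arrays exceeded background. The means were 225 ± 69.1 and 101 ± 69.9 (SD, n = 3), and the log2 difference was 1.38 ± 0.59 (SE, 95% interval 0.04 to 2.72, limma adjusted p = 0.330). Its lowest array was non-branching replicate 2 and its highest branching replicate 2, which held for Sftpc too. Without non-branching replicate 2 the difference was 0.79, and without non-branching replicate 3 it was 1.91.

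Trp63 (Entrez gene 22061) encodes p63, the transcription factor of basal cells, the stem cells of the trachea and large airways. Its signal was 133, 203 and 170.4 on branching replicates 1 to 3 and 97.5, 198 and 223 on non-branching replicates 1 to 3. Each region had 1 array below background and 2 above it, and the groups overlapped throughout. The means were 169 ± 35.1 and 173 ± 66.4 (SD, n = 3), with a log2 difference of 0.03 ± 0.42 (SE, 95% interval -0.92 to 0.99, limma adjusted p = 0.985). The sign of that difference turned when branching replicate 2 (-0.11) or non-branching replicate 1 (-0.34) was left out.

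**Figure D3:**
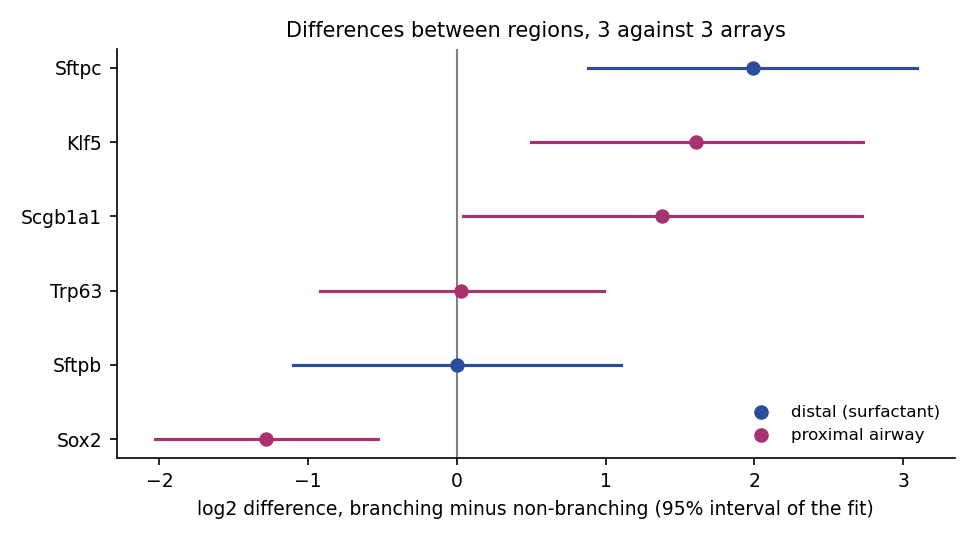
Log2 difference, branching minus non-branching, of 6 markers (points) with the 95% interval of the fit (lines), for distal markers in blue and proximal markers in purple. Sftpc, at 1.99, and Sox2, at -1.28, are the outermost, the proximal markers Klf5 and Scgb1a1 lie on the same side as Sftpc, and Sftpd is not drawn because it was below background on all arrays.

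Other markers of the tip and alveolar epithelium had differences of both signs, with a fitted difference above 0 for 15 of the 20 tested. The list held 38 further genes, of which 25 had a probe set and 20 were tested. With limma 1 rose, 0 fell and 19 were not called, against 2.03% called among all probe sets, 6 of 20 had an unadjusted p under 0.05, against 14.6% of all probe sets, and the median log2 difference was 0.28, against -0.0046 over all probe sets tested. Mycn (Entrez gene 18109), a proto-oncogene of dividing tip progenitors, rose by 0.85 ± 0.15 on the log2 scale (SE, limma adjusted p = 0.0210). The non-branching mean was 602 ± 60.6 and the branching mean 1086 ± 62.3 (SD, n = 3). Its difference was 0.80 to 0.93 whichever array was left out, but 1 of these 6 omissions, that of non-branching replicate 2, kept the call, and the adjusted p was 0.0585 to 0.0885 in the other five. It was not called with the replicate block (adjusted p = 0.0684) or without the variance trend (adjusted p = 0.119). Of the other five at an unadjusted p under 0.05, named after their values were seen and none of them called, 3 had lower signal in branching and the other two higher signal. Id2, an inhibitor of helix-loop-helix factors that marks tip progenitors, averaged 2588 ± 320.0 on the branching arrays and 3544 ± 436 on the other three (SD, n = 3), a log2 difference of -0.45 (limma adjusted p = 0.136). Foxp1, a forkhead repressor of the lung epithelium, differed by -0.64 (limma adjusted p = 0.152), and Fgfr2, the receptor through which Fgf10 acts on the tips, by -0.57 (limma adjusted p = 0.193). Fasn, the fatty acid synthase gene, differed by 0.55 (limma adjusted p = 0.101) and Wnt7b, an epithelial Wnt ligand gene, by 0.54 (limma adjusted p = 0.253). Napsa, Ctsh, Slc34a2, Hc and Lyz2, products of mature alveolar cells among others, were below background on all 6 arrays.

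Other genes of the airway, basal and neuroendocrine epithelium numbered 47, of which 36 had a probe set and 23 were tested. With limma 0 were called, against 2.03% of all probe sets, and 4 of 23 had an unadjusted p under 0.05, a share near the 14.6% of all probe sets. The median log2 difference was -0.15, and the fitted difference was above 0 for 9 of the 23. Foxa2 (Entrez gene 15376), a forkhead factor of the foregut endoderm, had the smallest p. Its branching mean was 548 ± 26.5 and its non-branching mean 841 ± 32.7 (SD, n = 3), a difference of -0.62 ± 0.15 (SE, limma adjusted p = 0.0751). Chga, the chromogranin gene of neuroendocrine and neuronal cells, followed with 352 ± 246 and 658 ± 134, a difference of -1.10 ± 0.42 (adjusted p = 0.271). Its groups overlapped, and it was called without branching replicate 2 (-1.63, adjusted p = 0.0378). Uchl1 (-0.40, limma adjusted p = 0.290) and Insm1 (-1.19, limma adjusted p = 0.309) were the others at an unadjusted p under 0.05. They were named after their values were seen, and neither was called. Of the 36 genes, 15 were below background on all arrays, among them the basal keratin genes Krt14 and Krt15 and the mucin gene Muc5ac. The basal keratin genes Krt17 and Krt5 were not among them. Krt17, with a less specific probe set, exceeded background on all arrays, and Krt5 exceeded it on 1 branching array.

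Genes expressed by epithelia in general were read on the same arrays. Their summed signal over 20 genes, in which bright probe sets weigh most, was 7322 to 8336 in branching and 6625 to 7416 in non-branching. These ranges overlapped. Of 17 tested, limma called 0, against 2.03% of all probe sets. At an unadjusted p under 0.05 there was 1 gene, against 14.6% of all probe sets. The median log2 difference of the 17 was 0.10. The gene at that p was Cldn6, a tight junction claudin gene, with a difference of 0.62 ± 0.14 (SE, limma adjusted p = 0.0647, or 0.0467 when only the brighter 50% of probe sets were tested). Krt7, a simple keratin gene, followed with 0.33 ± 0.19 (adjusted p = 0.473). Cdh1, which encodes E-cadherin, had mean signals of 929 ± 167 and 892 ± 146 (SD, n = 3) and was above background on every array. The differences of the 17 were at most 0.77 in size. Those of Sftpc and Sox2, the markers with the smallest p, were larger, while Sftpb and Trp63 had nearly the same mean in both regions. A p that misses the threshold does not show an equal share of epithelium.

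**Figure D4:**
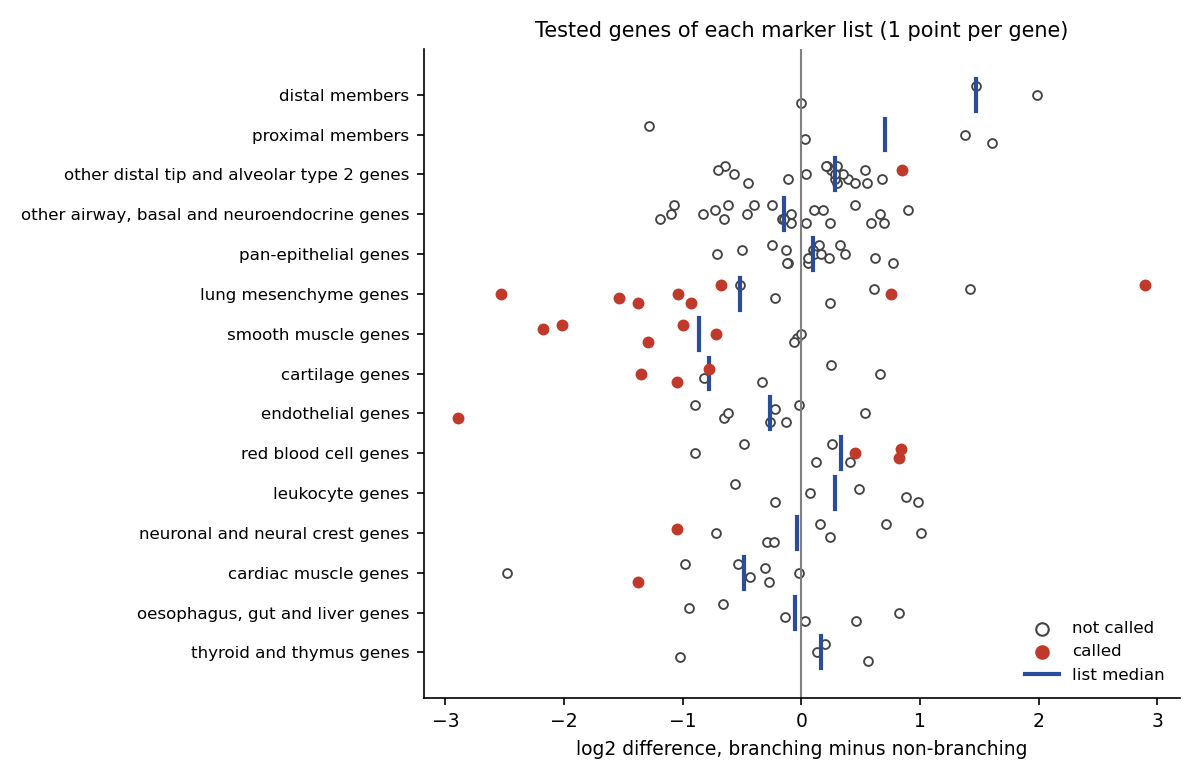
Log2 difference, branching minus non-branching, of every tested gene in each marker list (1 point per gene), filled where the gene was called, with a blue bar at the list median and dim genes included. The distal and airway epithelial lists hold 1 called gene, Mycn, while called genes lie on the lower side in the smooth muscle and cartilage lists.

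The lists for tissues other than epithelium ranged from ones with several called genes to ones with 0. Each count below stands beside the 2.03% called among all probe sets. The sums add linear signals, so a few bright probe sets can make up most of a sum, which need not hold for the whole list. The summed signal of the 8 smooth muscle genes measured was 7211 to 7746 in branching and 12585 to 13677 in non-branching, and limma called 5 of 8 lower and 0 higher. For 10 cartilage genes it was 3454 to 3568 and 6128 to 6537, with 3 of 7 tested genes lower. For 16 lung mesenchyme genes it was 22807 to 23068 and 35189 to 36675, with 2 of 13 tested higher and 6 lower. For 10 cardiac muscle genes it was 2378 to 2434 and 3791 to 4634, with 1 of 8 tested lower. That gene was Actc1, whose probe set is of a less specific design, and the fitted log2 difference was above 0 for 0 of the 8. For 9 endothelial genes the summed signal was 4292 to 4698 and 5024 to 5287, with 1 of 9 lower. For 9 red blood cell genes it was 136607 to 152108 and 88577 to 96032, with 3 of 8 higher. Neuronal and neural crest genes, which can be in the same pieces as neuroendocrine genes, summed to 4626 to 5087 over 13 genes in branching and 5445 to 5889 in non-branching, with 1 of 8 tested lower. The sums overlapped, and limma called 0, for 3 lists. These were oesophagus, gut and liver genes, at 809 to 1012 and 915 to 1043 over 12 genes with 8 of them below background on all arrays, leukocyte genes, at 2203 to 2407 and 1829 to 2234 over 9 genes, and thyroid and thymus genes, at 505 to 662 and 424 to 711 over 6 genes. None of the genes tested in these 3 lists had an unadjusted p under 0.05, against 14.6% of all probe sets. The part of these tissues in the marker differences was not tested.

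For each marker, the 3 genes with the most similar log2 signals over the 6 arrays were found by Pearson correlation. The arrays share 2 regions and 1 scale, and all probe sets with 1 symbol of another gene among the 9316 tested were searched. High values are therefore common and describe the pattern only. Nearest to Sftpc were Smyd5 (r = 0.993), Mdh2 (0.993) and Hells (0.992), none of them called. Nearest to Sox2 were Septin7 (0.992), Actc1 (0.987) and Ddit4 (0.986). Actc1, the cardiac actin gene, and Ddit4, a stress response gene, were both called lower in branching, by limma differences of -1.38 (adjusted p = 0.0142) and -1.03 (adjusted p = 0.0141). The name of the Actc1 probe set, like that of Sox2, marks a less specific design. Nearest to Klf5 were Prpf31 (0.993), Srm (0.989) and Ppm1g (0.987), all 3 called higher in branching, with adjusted p = 0.0398, 0.0315 and 0.0494. For Scgb1a1 they were Cyhr1, Jph3 and Tnfaip1 (0.976 to 0.991), for Sftpd Pemt, Tbrg4 and Bcat1 (0.974 to 0.983), for Sftpb Bcat2, Hax1 and Blzf1 (0.980 to 0.994), and for Trp63 Lmo7, Cyp2c29 and Otp (0.976 to 0.994), none of these called. Cyp2c29 exceeded background on 0 of the 6 arrays.

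**Figure D5:**
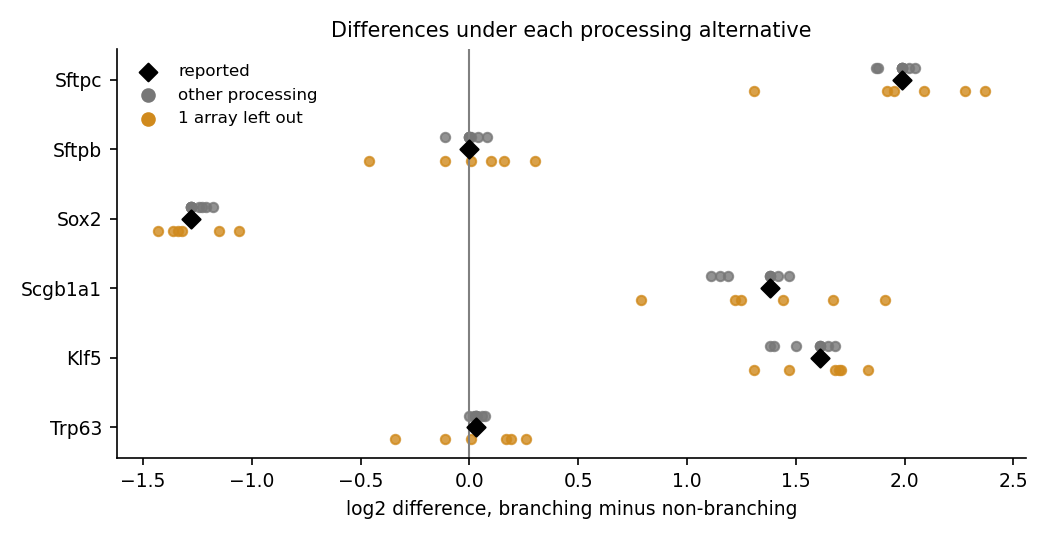
Log2 difference, branching minus non-branching, of 6 markers as reported (diamonds), under the other processing choices (grey) and with 1 array left out (orange). Sftpc, Scgb1a1 and Klf5 stay above 0 and Sox2 below 0 in each, Sftpc reaches its lowest value, 1.31, without non-branching replicate 2, and Sftpb and Trp63 lie on both sides of 0.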

How the data were processed

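The deposited file holds 1 intensity per probe set and array on a linear scale. How the authors computed it was not given in the sources used here. Each array had a trimmed mean of 500.3 (outer 2% left out on each side), so a common scale had been set before deposit. Without 66 controls, 12422 probe sets remained, 10833 of them with a single symbol, 396 with several and 1193 without. Signals were floored at 16 and log2 transformed, the dimmest 25% were dropped, and 9316 were fitted across the array with limma 3.58.1 in R 4.3.3 (2 regions, eBayes with a variance trend, two-sided). In a fold, arrays of the dimmer group below background were raised to 147. The fit was run on simulated data as a check of the code. How often it misses differences of the markers' size is not given here. In lists, the brightest probe set stood for its gene. Named were all members, in each other epithelial list up to 4 called genes with the largest difference or the 2 with the smallest p, and the 3 genes most like each member. Cdh1, Krt5, Krt17 and genes given as below background were named after their values were seen. Lists for other tissues are given as counts, without the genes this rule would name, except for Actc1. A planned difference between the Sftpc and Sox2 signals of each array is not given, because it sets levels of different probe sets against each other. Members and lists were chosen with earlier results of these data known. The alternatives tried were a replicate block, quantile normalization, median centring, no filter, a 50% filter, a floor of 64, log2 of the value plus 16, no variance trend, array weights, and leaving out each array.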

Additional observations from a re-analysis of the deposited data

How the results depend on the processing

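The count of markers called was 0 in the reported fit and under the 9 alternatives in processing, and 0 to 1 when an array was left out, the 1 being Sftpc without non-branching replicate 2. Sox2, Klf5 and Scgb1a1 were called under none of their alternatives and kept their sign in each. Trp63 ranged from -0.34 to 0.26 with 1 array left out and Sftpb from -0.46 to 0.30. Over the whole array, 189 probe sets were called. The number was 100 without the filter on dim probe sets, 22 without the variance trend and 114 with the replicate block. It was higher with the dimmer 50% left out (255), array weights (250), a floor of 64 (214), quantile normalization (202) and 16 added (196). With median centring it was 167. With 1 array left out it was 61 to 150 (61 without non-branching replicate 3, 72 without branching replicate 3, 85 without non-branching replicate 2 and 117 without branching replicate 2). Deviations of same-numbered arrays from their region's mean correlated at -0.00228, 0.0127 and -0.0150. Those of differently numbered arrays correlated at -0.0486 to 0.0517. With 3 arrays in each region, these values cannot tell whether the numbers pair the samples. With the block no marker was called (Sftpc adjusted p = 0.119, Sox2 0.205). With the dimmer 50% left out, Sftpb, Sftpd, Klf5, Scgb1a1 and Trp63 were not tested, and Sftpd was also not tested in 4 of the 6 omissions. Signal near background limits each marker except Sftpc in branching and Sox2 in non-branching.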
